A study of Mus musculus with 6 samples.

Results

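The genes described here, across the cells of a single-cell study of mouse colon T cells, are Ky, Ankrd55, Epcam, Frmd5, Art2b, Cd81, Pglyrp1, Dgat2 and Hspb1. They are 9 of the 15473 genes in the deposited table and were chosen by their measured levels, for their fall in tdTomato+GFP+ cells. Their values in that contrast are therefore given as a description and without a test. Tests were run only inside a single gate.

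CD4 T cells from the lamina propria of the colon, the connective tissue layer below the gut epithelium, were sorted into 2 gates. All cells came from mice that carry Foxp3{delta}EGFPiCre/WT and also R26lsl-tdTomato/wt, so both gates share both alleles. In such mice a Foxp3 allele carries an EGFP and iCre insert, read here as a reporter allele that makes no Foxp3 protein, and a Cre-dependent tdTomato reporter marks cells in which that allele has been active. The tdTomato+GFP+ gate holds cells that use the inserted allele, and the tdTomato-GFP- gate holds cells with neither reporter, among them regulatory T cells that use the intact allele. Since the Foxp3 locus drives EGFP and Cre, and tdTomato stays on once Cre has acted, the tdTomato+GFP+ gate selects cells in which the inserted allele is in use. The age and sex of the mice and any treatment are not given in the sources used here. Each gate was 1 10x lane with 3 hashed biological replicates (n = 3 throughout), so in values that compare the gates a lane effect cannot be told apart from a gate effect.

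Regulatory T (Treg) cells, which restrain other T cells, are marked by the transcription factor Foxp3 and are common in the lamina propria of the colon. There they are known for keeping immune responses to gut bacteria and food in check. Foxp3 binds together with other factors at many genes, and its loss is known to change part of the Treg transcript programme while other parts persist.

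The genes code for proteins of different kinds. Cd81 encodes a tetraspanin, a membrane protein that organises other surface proteins and is also known in B cells. Epcam encodes an adhesion molecule of epithelial cells, and Art2b an enzyme on the T cell surface that attaches ADP-ribose to other surface proteins. Pglyrp1 encodes a secreted protein that binds bacterial peptidoglycan. Dgat2 encodes an enzyme of the last step of triglyceride synthesis, and Hspb1 a small heat shock protein. Ky encodes a muscle protein named for the kyphoscoliosis mouse, Frmd5 a protein with a FERM domain, which links membranes to the cell skeleton, and Ankrd55 a protein with ankyrin repeats. Art2b has a close paralog, Art2a, that was not analysed here, so its counts are uncertain to the extent that the counting could split reads between them.

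On the GRCm38 assembly, 4 of the genes lie on chromosome 7, namely Cd81 at chr7:143052750-143067930, Pglyrp1 at chr7:18884690-18890438, Dgat2 at chr7:99153663-99182713 and Art2b at chr7:101575729-101585591. The others are Ky at chr9:102505755-102546247, Ankrd55 at chr13:112288451-112384005, Epcam at chr17:87635979-87651127, Frmd5 at chr2:121545529-121807087 and Hspb1 at chr5:135887919-135889563.

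Promoter sequences were found for 7 of the 9 genes in the RefSeq promoter table (GRCm38.p6). Of these windows 4 end at the annotated gene start. Those of Ky and Art2b lie inside the annotated gene, and that of Frmd5 overlaps it. The sequences of Cd81, Pglyrp1 and Hspb1 are printed because their windows end at the annotated gene start and the genes mark contrasting results below. Cd81 had gate differences in both directions and Pglyrp1 the widest gap over all cells, and Hspb1 is among the heat shock genes. These 3 sequences are given in the same form. Each holds the 250 bases before the start on the plus strand, 5′ to 3′, at chr7:143052500-143052749 for Cd81, chr7:18884440-18884689 for Pglyrp1 and chr5:135887669-135887918 for Hspb1. Capitals mark the GC box (GGGCGG, or CCGCCC on the other strand) and, in Hspb1, also the core of the heat shock element (GAANNTTC, which reads the same on both strands).
Cd81: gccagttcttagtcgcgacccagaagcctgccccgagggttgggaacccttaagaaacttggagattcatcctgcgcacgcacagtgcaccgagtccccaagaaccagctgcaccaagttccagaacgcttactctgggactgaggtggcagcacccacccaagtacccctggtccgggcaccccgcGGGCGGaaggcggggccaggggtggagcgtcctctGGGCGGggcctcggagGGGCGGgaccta
Pglyrp1: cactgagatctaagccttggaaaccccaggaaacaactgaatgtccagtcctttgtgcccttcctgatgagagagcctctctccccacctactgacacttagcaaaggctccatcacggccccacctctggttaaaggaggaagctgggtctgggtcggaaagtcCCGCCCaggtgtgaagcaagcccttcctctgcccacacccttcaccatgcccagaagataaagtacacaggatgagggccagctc
Hspb1: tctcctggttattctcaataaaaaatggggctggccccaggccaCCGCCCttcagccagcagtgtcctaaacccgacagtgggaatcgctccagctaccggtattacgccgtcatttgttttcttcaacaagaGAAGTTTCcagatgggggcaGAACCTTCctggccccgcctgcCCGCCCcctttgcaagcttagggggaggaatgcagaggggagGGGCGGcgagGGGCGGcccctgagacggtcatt
The Hspb1 window has 2 heat shock element cores, which begin 117 and 97 bases before the start, and 4 GC boxes. Such a core occurs in 6.69% of all 32851 promoters of the same length and a GC box in 32.74%. Cd81 has 3 GC boxes and Pglyrp1 has 1. The forkhead core TGTTTAC (3.17% of promoters, both strands), the RUNX motif TGTGGTT (4.4%) and the ETS motif CCGGAAG (6.91%) have no match in the 7 windows. A match describes letters only, and a missing match says nothing of the factor.

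The table held 23595 cells, of which 18874 had a replicate assigned by hashing (8765 tdTomato+GFP+ and 10109 tdTomato-GFP- cells). Median depth per replicate was 3502 to 3771 UMIs (counted transcript molecules) per cell in the tdTomato+GFP+ gate and 3779 to 3905 in the tdTomato-GFP- gate, and 106 cell barcodes occurred among assigned cells of both lanes. The T cell gene Cd3e had a UMI in 97.2% to 97.9% of cells per replicate of the tdTomato+GFP+ gate and 94.3% to 95.5% of the tdTomato-GFP- gate. Cd4 had one in 79.3% to 80.5% of tdTomato+GFP+ cells and 66.9% to 69.9% of tdTomato-GFP- cells. Foxp3, the gene with the inserted allele, had 144, 118 and 115 CPM (counts per 1e6 UMIs) in tdTomato+GFP+ replicates 1 to 3, against 174, 194 and 168 CPM in the tdTomato-GFP- ones. Foxp3 transcript was thus present in both gates, at a lower level over all cells in the tdTomato+GFP+ gate. Its detection, in replicates 1 to 3, ran the other way. At least 1 Foxp3 UMI was seen in 37.8%, 33.2% and 31.3% of tdTomato+GFP+ cells, against 21.8%, 23.1% and 19.0% of tdTomato-GFP- cells.

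Over all cells, 7 of the 9 genes were lower in every replicate of the tdTomato+GFP+ gate than in any replicate of the tdTomato-GFP- gate. Among all genes with at least 100 UMIs, 20.1% were. The contrast chose the genes, so nothing is read from this count. The level sums cells of all kinds, in which fewer expressing cells and less RNA per cell cannot be told apart. Pglyrp1 had the widest gap, at 3.10, 3.97 and 7.02 CPM in tdTomato+GFP+, against 53.5, 55.6 and 50.1 CPM in tdTomato-GFP- replicates, a mean 11.3-fold lower. Ky was at 0.94, 0.84 and 1.61 CPM in tdTomato+GFP+, against 10.9, 11.8 and 8.96 CPM in tdTomato-GFP- replicates. Dgat2, the rarest of the genes, rested on 16 UMIs in tdTomato+GFP+ and 181 UMIs in tdTomato-GFP- cells, with 0.35 to 0.60 CPM in tdTomato+GFP+, against 3.65 to 4.48 CPM in tdTomato-GFP- replicates. For these 3 genes the replicates of the gates lay far apart.

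Epcam was at 2.83, 1.39 and 2.21 CPM in tdTomato+GFP+, against 14.8, 15.9 and 20.1 CPM in tdTomato-GFP- replicates. Ankrd55 ranged from 0.67 to 0.80 CPM in tdTomato+GFP+, and from 5.17 to 6.44 CPM in tdTomato-GFP- replicates. Art2b ranged from 4.31 to 5.92 CPM in tdTomato+GFP+, and from 19.4 to 24.7 CPM in tdTomato-GFP- replicates. Their mean levels were 7.90-fold, 7.71-fold and 4.58-fold lower in tdTomato+GFP+ cells. Hspb1 stood at 1.08, 4.32 and 4.31 CPM in tdTomato+GFP+, against 7.39, 14.7 and 20.1 CPM in tdTomato-GFP- replicates, lower but with a wide spread in both gates.

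Cd81 and Frmd5 were the exceptions, since their replicates overlapped between the gates. Cd81 was by far the most abundant of the genes in UMIs, at 59.4, 70.7 and 42.7 CPM in tdTomato+GFP+, against 68.0, 87.0 and 69.3 CPM in tdTomato-GFP- replicates. Frmd5 varied widely between replicates, at 9.16, 4.07 and 2.01 CPM in tdTomato+GFP+, against 9.58, 9.11 and 3.79 CPM in tdTomato-GFP- replicates. Against the tdTomato-GFP- cells with a Foxp3 UMI neither gene overlapped, as given next, while among cells without one Frmd5 still overlapped and Cd81 was higher in the tdTomato+GFP+ gate.

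Set against the tdTomato-GFP- cells that held a Foxp3 UMI (2194 cells, the closest stand-in for Treg cells with the intact allele), all 9 genes were lower in every tdTomato+GFP+ replicate, against 20.4% of all genes. This too is a contrast that chose them. The median of the 9 log2 ratios was -4.60, from -5.27 for Ky to -1.87 for Cd81. In these tdTomato-GFP- cells Ky stood at 43.0, 42.9 and 44.6 CPM and Pglyrp1 at 125, 136 and 140.0 CPM, both nearly equal between replicates. Cd81 stood there at 161, 228 and 243 CPM and Dgat2 at 11.4, 14.4 and 21.6 CPM. Hspb1 varied most, at 18.9, 27.9 and 73.0 CPM.

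The tdTomato+GFP+ cells that held a Foxp3 UMI (2946 cells) did not have these levels. In them Ky was at 1.698, 0.79 and 2.37 CPM, Pglyrp1 at 3.74, 3.44 and 3.26 CPM and Dgat2 at 0.34, 0.53 and 0.89 CPM. Ankrd55 was at 1.36, 0.53 and 0.89 CPM, against 21.4, 18.1 and 15.6 CPM in tdTomato-GFP- cells with a Foxp3 UMI. Epcam was at 1.698, 1.19 and 0.59 CPM, against 54.3, 51.5 and 64.9 CPM in those cells. Cd81 (41.4, 71.4 and 39.7 CPM) and Frmd5 (9.51, 5.17 and 3.55 CPM) had the narrowest gaps to the tdTomato-GFP- cells with a Foxp3 UMI. The genes were chosen for their fall in tdTomato+GFP+ cells, so nothing is read from these gaps. The Foxp3 transcript of the tdTomato+GFP+ cells with a Foxp3 UMI was itself lower, 363, 315 and 339 CPM, against 767, 809 and 903 CPM in the tdTomato-GFP- cells.

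**Figure D1:**
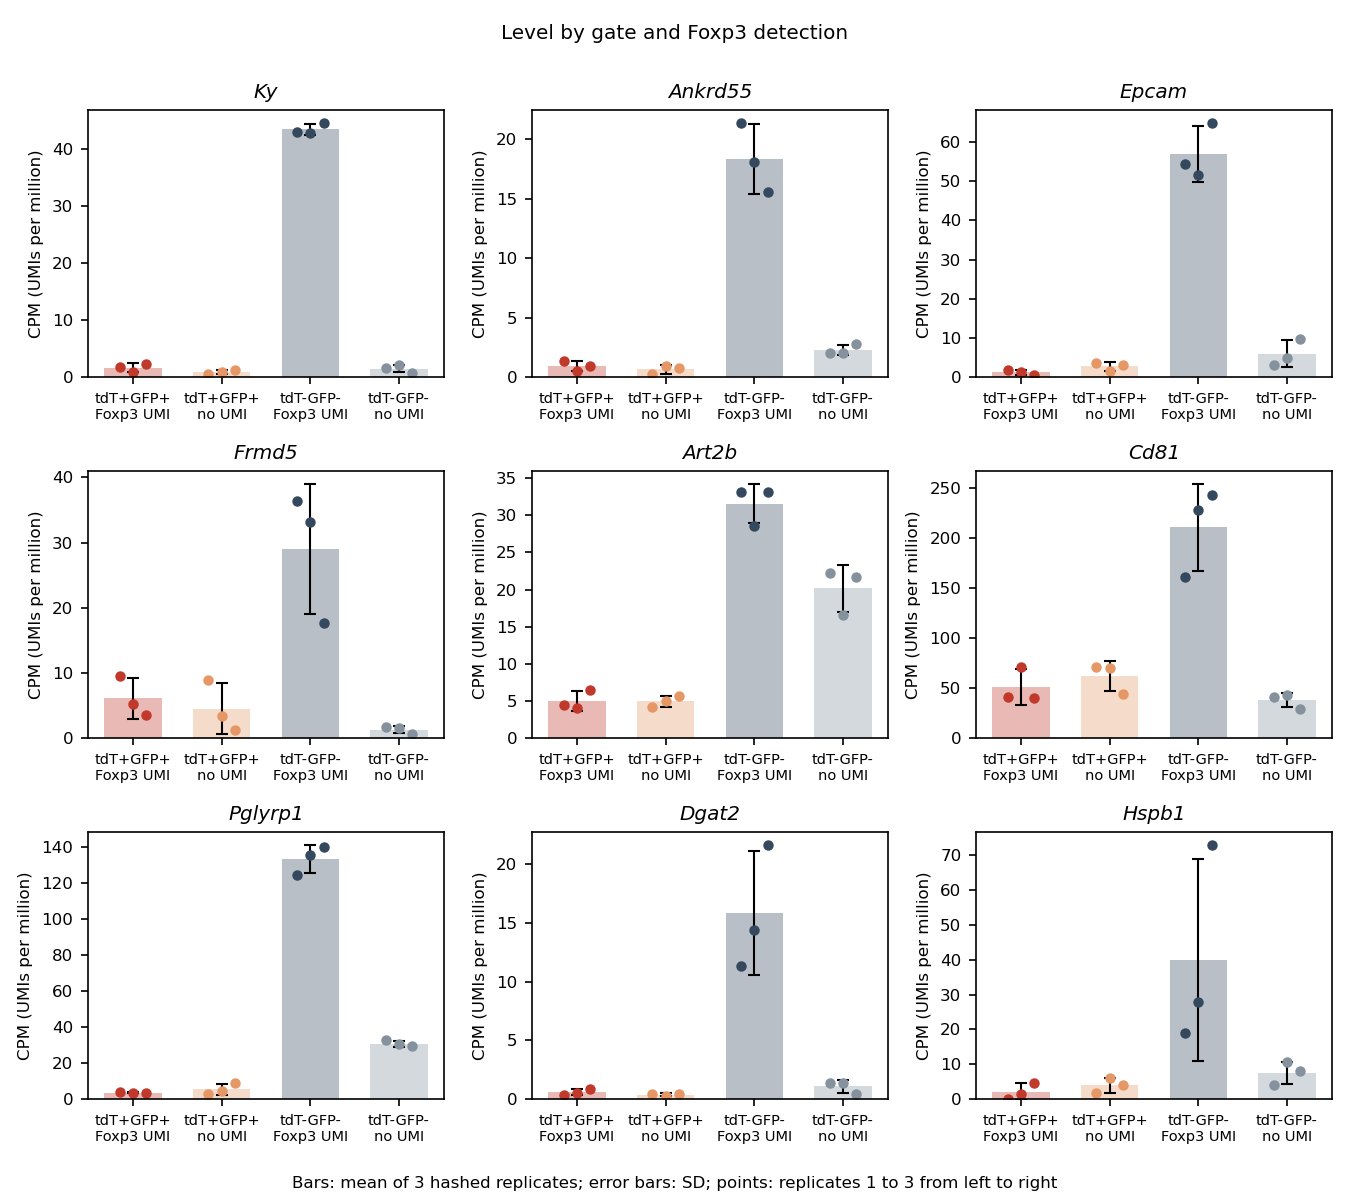
Levels of the 9 genes in CPM in cells of the tdTomato+GFP+ gate (left pair of bars) and the tdTomato-GFP- gate (right pair), each split into cells with and without a Foxp3 UMI. Bars are means of 3 hashed replicates, error bars are SD and points are replicates. In each panel the tdTomato-GFP- cells with a Foxp3 UMI stand highest. In tdTomato-GFP- cells without one, Cd81 (mean 37.6 CPM), Pglyrp1 (30.8 CPM) and Art2b (20.2 CPM) have the highest levels of the 9 genes.

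Cells without a Foxp3 UMI set the genes apart from each other. In the tdTomato-GFP- gate all 9 genes were higher in cells with a Foxp3 UMI than in cells without one in every replicate, against 21.6% of all genes, and the cells with a UMI are a side of the contrast that chose them. The mean ratio was 29.9-fold for Ky, 22.4-fold for Frmd5 and 14.8-fold for Dgat2. It was 1.57-fold for Art2b, which stood at 33.1, 28.5 and 33.1 CPM in cells with a Foxp3 UMI and 22.3, 16.5 and 21.7 CPM in cells without one. Pglyrp1 was likewise present in cells without a Foxp3 UMI, at 32.7, 30.3 and 29.5 CPM. Its ratio of 4.33-fold was the next lowest of the 9 genes.

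In cells without a Foxp3 UMI, Art2b was at 4.24, 4.92 and 5.62 CPM in the tdTomato+GFP+ gate and 22.3, 16.5 and 21.7 CPM in the tdTomato-GFP- gate. Pglyrp1 was at 2.68, 4.28 and 8.95 CPM in tdTomato+GFP+, against 32.7, 30.3 and 29.5 CPM in tdTomato-GFP- cells. Cd81 was higher in tdTomato+GFP+ cells there, with 71.2, 70.3 and 44.3 CPM in tdTomato+GFP+, against 40.7, 42.6 and 29.5 CPM in tdTomato-GFP- cells, and the replicates of the gates did not overlap. Frmd5 was at 8.93, 3.41 and 1.21 CPM in tdTomato+GFP+, against 1.72, 1.55 and 0.62 CPM in tdTomato-GFP- cells, with overlap.

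The number of these genes detected per cell was compared at equal depth. Cells with at least 2000 UMIs were thinned to that number and classed by the thinned counts, which left out 505 of 8765 tdTomato+GFP+ and 637 of 10109 tdTomato-GFP- cells. At least 1 of the 9 genes was seen in 11.4% ± 1.7 (SD, n = 3) of tdTomato+GFP+ cells with a Foxp3 UMI and in 58.6% ± 5.57 of tdTomato-GFP- cells with one. At least 2 were seen in 0.47% of these tdTomato+GFP+ cells and 25.0% of these tdTomato-GFP- cells. Without a Foxp3 UMI, at least 1 was seen in 12.1% ± 1.64 of tdTomato+GFP+ and 17.6% ± 0.85 of tdTomato-GFP- cells. Within the tdTomato+GFP+ gate the shares with and without a Foxp3 UMI lay within 1 SD of each other. Without thinning, at least 1 was seen in 20.5% ± 2.53 of tdTomato+GFP+ and 72.7% ± 2.85 of tdTomato-GFP- cells with a Foxp3 UMI, and in 19.7% ± 1.17 of tdTomato+GFP+ and 25.6% ± 1.21 of tdTomato-GFP- cells without one.

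**Figure D2:**
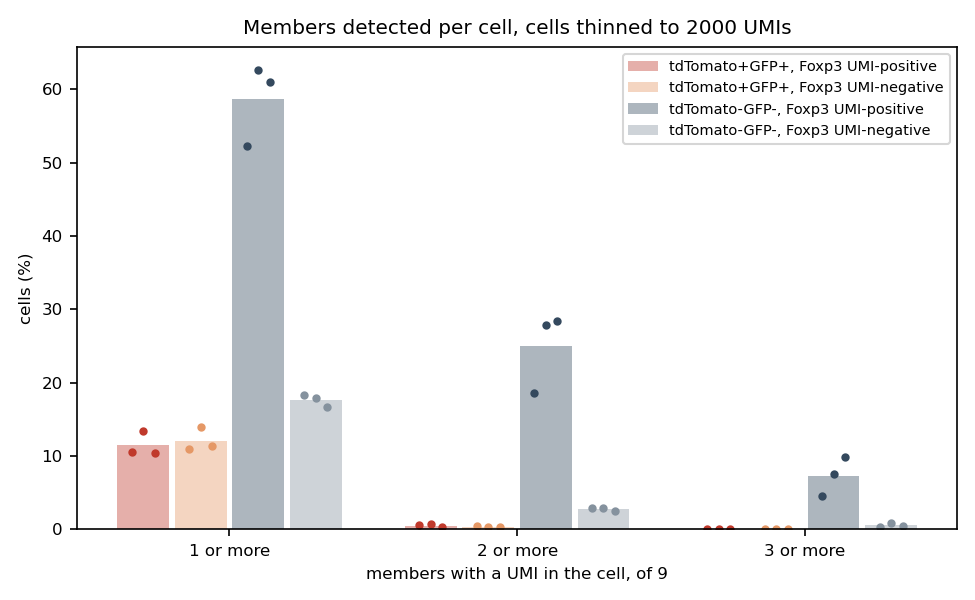
Share of cells, in percent, in which at least 1, 2 or 3 of the 9 genes were detected after thinning the cells with at least 2000 UMIs to that number, for tdTomato+GFP+ and tdTomato-GFP- cells with and without a Foxp3 UMI. Bars are means of 3 hashed replicates and points are replicates. The tdTomato-GFP- cells with a Foxp3 UMI reach 58.6% for at least 1 gene, and the other groups lie between 11.4% and 17.6%. In the tdTomato+GFP+ gate the shares rest mainly on Cd81.

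Assigned cells that the authors placed in no cluster carried many B cell and plasma cell transcripts. Their median depths were 4309 to 5359 UMIs in the tdTomato-GFP- gate, where they were set beside cells with a Foxp3 UMI. What these cells are was not tested and stray transcripts were not measured, so they set no background for any of the genes. A Ky UMI was found in 14.6% of tdTomato-GFP- cells with a Foxp3 UMI, whose median depths were 3585 to 3736 UMIs, and in 1.27% of these 127 cells. Pglyrp1 was found in 34.9% of cells with a Foxp3 UMI and 11.7% of cells without a cluster, and after thinning in 23.7% and 7.36% of the same cells. Epcam was found in 14.9% of cells with a Foxp3 UMI and 16.04% of those without a cluster (9.72% and 5.30% thinned), so its share before thinning was not above theirs. Cells with 2 or more epithelial UMIs left out, Epcam stood at 34.3 CPM in tdTomato-GFP- cells without a cluster. In that gate it stood at 5.27 CPM in clusters other than 5 and 10. The cells without a cluster were thus rich in Epcam and are a poor background for it. Cd81 was found in 40.3% of cells with a Foxp3 UMI and 55.5% of cells without a cluster, and CD81 is known in B cells, so these cells are no background for it.

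Across the authors' clusters, Ky, Frmd5, Dgat2, Cd81 and Pglyrp1 had their highest mean level in cluster 5 of the tdTomato-GFP- gate. Ankrd55 and Epcam did so too, but by margins within their spread. The ranking covers 14 clusters with at least 20 cells in each replicate. How many of all genes peak in cluster 5 was not counted, so nothing is read from how many of these genes did. Cluster 5 also had the most Foxp3, at 776, 836 and 907 CPM. Since clusters were built from these same genes, their levels by cluster are a description. Cluster 5 held 71.0% of the Frmd5 UMIs and 69.0% of the Ky UMIs of clustered cells in that gate, 59.0% of those of Dgat2 and 42.7% of those of Cd81. Dgat2 averaged 21.0 ± 6.39 CPM in cluster 5 and 5.41 ± 1.55 CPM in cluster 8, the next among these clusters. Cluster 5 held 44.7% of the Ankrd55 UMIs. Ankrd55 averaged 20.2 ± 2.55 CPM in cluster 5 (118 UMIs) and 19.5 ± 5.70 CPM in cluster 14, a value from only 3 UMIs. In cluster 11 it averaged 9.81 ± 5.01 CPM (9 UMIs).

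Art2b and Hspb1 peaked elsewhere. Art2b averaged 70.9 ± 5.40 CPM in cluster 7, 45.1 ± 45.3 CPM in cluster 14 (9 UMIs), 44.3 ± 10.9 CPM in cluster 9 and 34.5 ± 1.91 CPM in cluster 5. Hspb1 averaged 49.0 ± 19.8 CPM in cluster 8 and 41.4 ± 35.7 CPM in cluster 5, within their spread. Pglyrp1 averaged 152 ± 22.0 CPM in cluster 5 and between 52.1 and 78.0 CPM in clusters 15, 4, 7, 8 and 11, the next in order, whose neighbours lie within their spread of each other. Epcam averaged 56.9 ± 28.4 CPM in cluster 5, 50.0 ± 64.3 CPM in cluster 11 and 41.5 ± 43.6 CPM in cluster 10, an order that its spread does not fix.

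**Figure D3:**
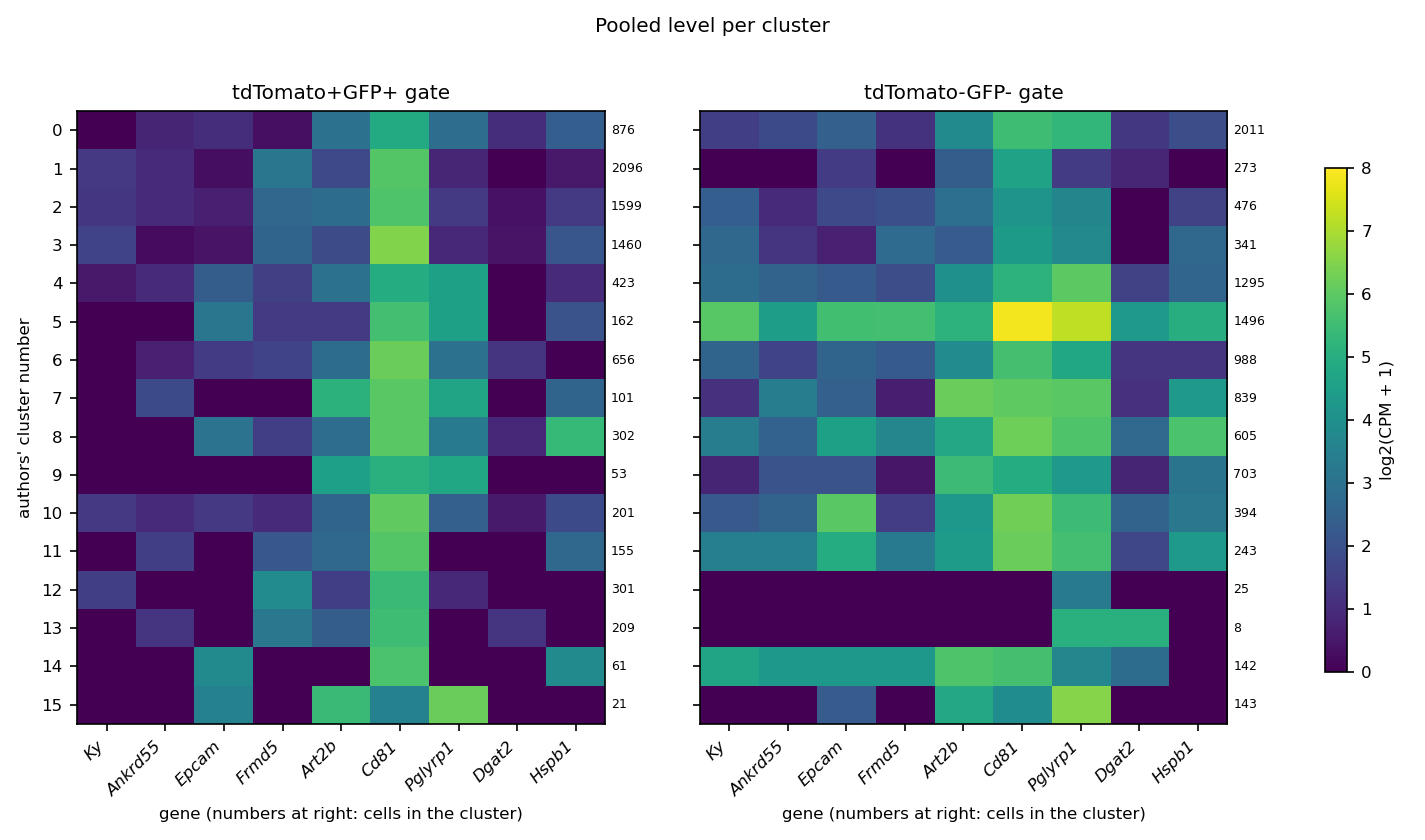
Level of the 9 genes as log2(CPM + 1), pooled over replicates, by cluster in the tdTomato+GFP+ gate (left) and the tdTomato-GFP- gate (right), with the number of cells of each cluster. Cluster 5 of the tdTomato-GFP- gate is the brightest for most genes, while pooled Art2b peaks in cluster 7, Hspb1 in cluster 8 and Epcam in cluster 10, and in the tdTomato+GFP+ gate Cd81 is the gene that stays visible across clusters.

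The genes whose levels followed each of them most closely over these 14 clusters were named by Pearson's r of log2(CPM + 1) among 10572 genes with at least 100 UMIs in the tdTomato-GFP- gate. Clusters share their lanes and replicates, so r is a description. Ky and Frmd5 were each other's nearest (r = 0.98), with Foxp3 (0.91 with Ky, 0.90 with Frmd5) and Flicr (0.94 with Ky, 0.89 with Frmd5), a long noncoding RNA next to Foxp3, as the next genes of both. Cd81 and Dgat2 were also near each other (0.90), and Cd81 was nearest to Arl4a (0.97) and Itgb8 (0.92), while Dgat2 had Tmem158 (0.87) and Arl4a (0.87). Ankrd55 was nearest to Trav2 (0.96), Prnp (0.93) and Sh3rf1 (0.89).

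The others followed different genes. Art2b was nearest to Traf5 (0.96), Cd27 (0.93) and Tmco4 (0.92), and Pglyrp1 to Oas1a (0.91), Fam241b (0.87) and Irf8 (0.87). Epcam was nearest to Gjb2 (0.84), Hpgds (0.83) and Trappc10 (0.82), and Hspb1 to LTO1 (0.90), Ankrd39 (0.89) and Rragd (0.86). Among pairs of the 9 genes the lowest r were those of Art2b with Frmd5 (0.20) and Ky (0.21).

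Inside cluster 5 the gates were set side by side, with 162 tdTomato+GFP+ and 1496 tdTomato-GFP- cells. Ky, Ankrd55 and Dgat2 had 0 UMIs in the tdTomato+GFP+ cells and 334, 118 and 105 UMIs in the tdTomato-GFP- cells. Set against 3 counts over the gate, the mean level was at least 12.9-fold lower for Ky, 4.25-fold for Ankrd55 and 4.43-fold for Dgat2. Cd81 was at 74.2, 61.3 and 20.5 CPM in tdTomato+GFP+, against 193, 274 and 276 CPM in tdTomato-GFP- replicates, which did not overlap. Pglyrp1 was at 95.4, 17.0 and 0 CPM in tdTomato+GFP+ replicates (14 UMIs in all) and 130.5, 174 and 152 CPM in tdTomato-GFP- replicates. Epcam overlapped, at 42.4, 3.40 and 0 CPM in tdTomato+GFP+ replicates, a total of 5 UMIs, and 25.8, 63.5 and 81.4 CPM in tdTomato-GFP- replicates. The number of tdTomato+GFP+ cells (24, 80 and 58 per replicate) limits all of these values. The B and plasma cell markers summed to 167 to 498 CPM in tdTomato+GFP+, against 837 to 1050.2 CPM in tdTomato-GFP- replicates of cluster 5, and their part in the Cd81 difference was not tested.

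Cells of cluster 5 without a Foxp3 UMI also carried the genes in the tdTomato-GFP- gate. Cd81 averaged 50.3 ± 25.0 CPM in the 103 tdTomato+GFP+ cells of this kind and 105 ± 73.0 CPM in the 321 tdTomato-GFP- cells. Pglyrp1 averaged 20.8 ± 31.3 CPM in these tdTomato+GFP+ cells and 73.4 ± 39.3 CPM in these tdTomato-GFP- cells. Ky averaged 32.5 ± 14.5 CPM and Ankrd55 16.5 ± 7.85 CPM in the tdTomato-GFP- cells. Outside cluster 5, the values of cells with a Foxp3 UMI also lay apart, with Ky at 1.66 ± 0.82 CPM in tdTomato+GFP+, against 22.9 ± 6.59 CPM in tdTomato-GFP- cells. Pglyrp1 averaged 2.68 ± 0.85 CPM in these tdTomato+GFP+ cells and 102 ± 8.87 CPM in these tdTomato-GFP- cells.

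In clusters 1, 2 and 3, which held most tdTomato+GFP+ cells (5155, against 1090 tdTomato-GFP- cells), Cd81 was higher in the tdTomato+GFP+ gate. It stood at 56.7, 76.9 and 46.8 CPM in tdTomato+GFP+, against 17.3, 20.4 and 22.3 CPM in tdTomato-GFP- replicates, without overlap. The B and plasma cell markers summed to 255 to 280.3 CPM in tdTomato+GFP+, against 328 to 373 CPM in tdTomato-GFP- replicates of these clusters. Their part in the Cd81 difference was not tested. Pglyrp1 was at 0.44, 1.39 and 0.83 CPM in tdTomato+GFP+, against 10.7, 9.80 and 6.08 CPM in tdTomato-GFP- replicates. Frmd5 overlapped, at 10.7, 5.89 and 2.68 CPM in tdTomato+GFP+, against 4.99, 1.63 and 0 CPM in tdTomato-GFP- replicates.

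Cells with a receptor found in both gates were also set side by side. Cells whose alpha and beta chains occurred in both gates numbered 578 in the tdTomato+GFP+ and 317 in the tdTomato-GFP- gate. Art2b averaged 3.73 ± 0.91 CPM in the tdTomato+GFP+ and 13.6 ± 8.49 CPM in the tdTomato-GFP- cells, and Pglyrp1 5.37 ± 2.47 CPM in the tdTomato+GFP+ and 17.3 ± 6.18 CPM in the tdTomato-GFP- cells. Cd81 averaged 64.6 ± 66.4 CPM in the tdTomato+GFP+ and 14.5 ± 7.70 CPM in the tdTomato-GFP- cells. Ky had 0 UMIs in these tdTomato+GFP+ cells and 3 UMIs in the tdTomato-GFP- cells.

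The first test asked whether these genes follow Foxp3 transcript inside the tdTomato+GFP+ gate, where that transcript is taken to come from the inserted allele. UMI counts were summed per hashed replicate over cells with a Foxp3 UMI (661, 1531 and 754 cells) and without one (1086, 3079 and 1654 cells). All were sorted for the reporters, so cells without a Foxp3 UMI may still hold its transcript. Cells with one were also deeper, with medians of 3954, 3943 and 3702 UMIs, against 3632, 3535 and 3440 UMIs. By edgeR's quasi-likelihood test with Benjamini-Hochberg adjustment and a threshold of 0.05, 1.74% of 10980 genes were higher and 1.42% lower in cells with a Foxp3 UMI. None of the 6 genes with enough counts passed, and DESeq2 called none. Of these, 2 had an unadjusted p below 0.05 by edgeR, as had 1488 of all 10980 genes. Ky (19 and 21 UMIs), Ankrd55 (11 and 18 UMIs) and Dgat2 (8 and 8 UMIs) were too rare to be tested.

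Epcam had the lowest unadjusted p, at 1.698, 1.19 and 0.59 CPM in cells with a Foxp3 UMI and 3.57, 1.51 and 3.04 CPM in cells without one. It was lower in 3 of 3 replicates, with a log2 fold change of -1.04 (SE 0.44, adjusted p = 0.273 by edgeR). Frmd5 was higher in 3 of 3 replicates, at 9.51, 5.17 and 3.55 CPM in cells with a Foxp3 UMI and 8.93, 3.41 and 1.21 CPM in cells without one (log2 0.50, SE 0.26, adjusted p = 0.406 by edgeR). Epcam had an unadjusted p of 0.0272 by edgeR, and neither gene passed after adjustment over all genes tested. The log2 fold changes of Art2b, Cd81, Pglyrp1 and Hspb1 were -0.06, -0.23, -0.57 and -1.28 (adjusted p of 0.973, 0.734, 0.391 and 0.347 by edgeR).

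Other settings changed 2 of these. Without replicate 2, Cd81 passed with a log2 fold change of -0.50 (adjusted p = 0.00708 by edgeR), and Hspb1 passed without replicate 3 at -2.39 (adjusted p = 0.00255 by edgeR). With all 3 replicates and no filter on low counts Hspb1 also passed, at -1.28 (adjusted p = 0.00472 by edgeR). Over all settings its adjusted p ran from 0.00255 to 1.00, and that of Cd81 from 0.00708 to 1.00. Hspb1 also rested on few cells, since 5 cells held 67.4% of its 138 UMIs in this gate. The B and plasma cell markers summed to 291 to 1210.2 CPM in cells with a Foxp3 UMI and 988 to 4590 CPM in cells without one. Their part in the Cd81 value was not tested.

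The second test asked whether the genes rise with Foxp3 transcript inside the tdTomato-GFP- gate. Cells with 2 or more Foxp3 UMIs (878, 545 and 267 cells per replicate) were set against cells with exactly 1 (248, 174 and 82 cells), all of them Foxp3 UMI-positive. By the same edgeR test 0.116% of 8599 genes were higher and 0.244% lower, and none of the 9 genes passed. None had an unadjusted p below 0.05 by edgeR, against 690 of all 8599 genes, and DESeq2 called none of the 9.

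Ky was at 43.1, 41.5 and 51.5 CPM with 2 or more Foxp3 UMIs and 42.3, 48.4 and 21.0 CPM with 1, overlapping (log2 0.13, SE 0.22, adjusted p = 0.933 by edgeR). Pglyrp1 was at 122, 146 and 159 CPM with 2 or more and 137, 96.8 and 75.1 CPM with 1 (log2 0.34, SE 0.20, adjusted p = 0.733 by edgeR). Without replicate 1 Pglyrp1 passed at 0.76 (adjusted p = 0.0219 by edgeR). Dgat2 was lower in 3 of 3 replicates, at 9.71, 13.5 and 20.9 CPM with 2 or more and 17.9, 18.2 and 24.0 CPM with 1 (log2 -0.56, SE 0.29, adjusted p = 0.671 by edgeR). Cd81 differed by 0.16, Frmd5 by 0.39, Art2b by -0.32, Hspb1 by -0.12 and Epcam by -0.83 on the log2 scale, with standard errors of 0.12, 0.25, 0.22, 0.99 and 0.82, and Ankrd55 by less than 0.01. Most of these standard errors leave room for differences of moderate size, so the levels are not shown to be equal.

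Epcam rested in part on a few cells. A cell of replicate 1 of the tdTomato-GFP- gate with 63213 UMIs held 124 Epcam UMIs, 17.2% of those of the gate, together with 1097 UMIs of the epithelial marker list, on which Epcam does not stand, and 43 Pglyrp1 UMIs. Cells with 2 or more epithelial UMIs, a class set after the data were seen, held 12.7% of the Epcam UMIs of the tdTomato+GFP+ gate (59 of 8765 cells) and 28.6% of those of the tdTomato-GFP- gate (76 of 10109 cells). In cluster 10 of the tdTomato-GFP- gate 10 such cells held 81.9% of 216 Epcam UMIs. In cluster 5 they held none of the 5 Epcam UMIs of tdTomato+GFP+ cells and none of the 261 of tdTomato-GFP- cells. With these cells left out Epcam stood at 1.67 CPM in all tdTomato+GFP+ cells and 11.6 CPM in all tdTomato-GFP- cells. The class held only 2 of the 27 Epcam UMIs of tdTomato+GFP+ cells without a cluster and 8 of the 41 of tdTomato-GFP- ones. The part of epithelial transcripts in the gap between the gates was not tested.

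**Figure D4:**
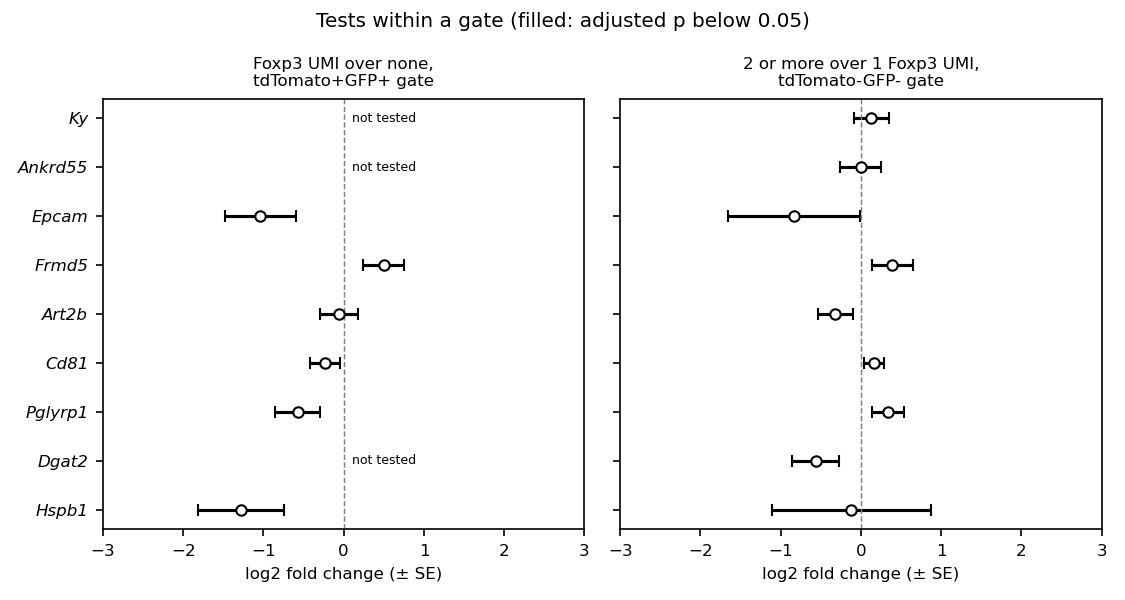
Log2 fold changes with SE of the 9 genes in the tests made inside a gate, which are cells with over cells without a Foxp3 UMI (tdTomato+GFP+ gate, left) and 2 or more over 1 Foxp3 UMI (tdTomato-GFP- gate, right). Filled points would have an adjusted p below 0.05 by edgeR and all points are open; the lowest values are those of Hspb1 (-1.28) and Epcam (-1.04) on the left, and Ky, Ankrd55 and Dgat2 were not tested there.

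Other genes of the same kinds were read from lists, whose counts stand beside the 1.74% of all genes that were higher and the 1.42% that were lower in the first test. Of the Treg identity genes tested, 5 of 22 were higher and 0 lower in tdTomato+GFP+ cells with a Foxp3 UMI than without one (median log2 0.10, against 0.001 over all genes), and DESeq2 called 3. Among them were Tnfrsf1b (0.36), Icos (0.32) and Il2ra (0.31), which encode a TNF receptor, a costimulatory receptor and the IL-2 receptor alpha chain. Of the tissue Treg genes 6 of 18 were higher and 0 lower (median 0.15), among them the cytokine gene Il10 (0.35), and DESeq2 called 6. The other 17 of 22 and 12 of 18 genes did not pass. Markers of other cell states moved in the same comparison. Of 6 cycling markers 4 were higher (median 0.41, none called by DESeq2), such as Top2a (0.56), and the cytokine genes Il17a (0.19) and Il17f (0.20) were higher. Of 6 Th1 markers 5 were lower (median -1.06, 1 called by DESeq2), such as Cxcr3 (-1.46) and Ifng (-0.65). Their part in the values of the Treg lists was not tested.

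Of tetraspanins and their partners, 3 of 9 were lower in that comparison and 0 higher (median -0.52), namely Ifitm1 (-3.35), Ifitm2 (-0.96) and Cd9 (-0.77). DESeq2 called none of this list. The B and plasma cell markers were lower on the same side, as given above, and their part in these values was not tested. Of heat shock genes, 4 of 9 were lower and 0 higher (median -0.20), among them Hspa1a (-0.51) and Dnajb1 (-0.40), and DESeq2 called 5. Of lipid droplet genes 1 of 13 was higher, Dgat1 (0.39), which encodes the other enzyme of the step that Dgat2 catalyses, and DESeq2 called 1. Of 4 tested genes of ADP-ribosyltransferases and extracellular nucleotide handling, listed for Art2b, none passed here or in the second test. In each test 1 of them had an unadjusted p below 0.05 (DESeq2 called none).

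Between 2 or more and 1 Foxp3 UMI, 1 of 22 Treg identity genes was higher (Tnfrsf4, 0.36) and 1 of 18 tissue Treg genes (Areg, 0.53), with medians of 0.26 and 0.28 and an all-gene median of -0.004, where 0.116% of all genes were higher and 0.244% lower. Cd9 (-1.29) and Hspa1a (-0.45) were lower, 1 of 8 genes in each of their lists, and DESeq2 called none in the list of Cd9 and 1 in that of Hspa1a. Lower as well were 6 of 8 tested epithelial markers, such as Cldn7 (-3.50), and these markers summed to 621, 19.6 and 15.7 CPM with 2 or more Foxp3 UMIs and 1036, 13.6 and 9.01 CPM with 1. DESeq2 called none of these markers. Cd9 is also known in epithelial cells, and the part of these cells in its fall was not tested. None of 11 lipid droplet genes passed, with 2 at an unadjusted p below 0.05 and none called by DESeq2.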

How the data were processed

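Single-cell RNA and T cell receptor libraries of 2 gates were analysed from 1 table of whole-number UMI counts per cell and gene, as deposited by the authors. Scanpy 1.7.2, Cell Ranger and the mm10 (GRCm38) build are named in the submitters' processing notes, without roles. Which of the chemistries in the labels was used is not stated. Hashtag columns (43.8% of UMIs) were left out, as were 4721 cells with no hashed replicate. Clusters and replicates are the authors'. No doublet caller was run and cells were not filtered further. The genes in the table had UMIs in at least 10 cells.

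CPM are counts per 1e6 UMIs, hashtags left out. For tests, counts were summed per hashed replicate and class (at least 20 cells per sum) and fitted with edgeR 4.0.16 (R 4.3.3; TMM, filterByExpr with a minimum count of 10, robust quasi-likelihood, two-sided, Benjamini-Hochberg over all genes tested). Log2 fold changes come from that fit. The hashed replicate was a block, since both sums of a pair come from the same hashed replicate. The script was tested on simulated data. DESeq2 1.42.0, no filter, no block, thinning to 2000 UMIs, equal cells per cluster, cluster subsets, 1 cell per clonotype and leaving out each replicate were alternatives. Intervals and floors of 3 counts cover counting error only.

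The 9 genes and all gene lists were chosen with earlier results of these data known. The text names all 9 genes, the 3 genes most like each over clusters, and up to 3 called genes per list and direction with the largest fold change. Other genes of the table were used only in the fits and counts. A planned comparison of cells within the tdTomato-GFP- gate is not reported here.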

Additional observations from a re-analysis of the deposited data

Results flagged for a closer look

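Epcam differed with Foxp3 detection in opposite directions in the gates, in every replicate. The mean difference of cells with minus cells without a Foxp3 UMI was -1.54 CPM in the tdTomato+GFP+ gate and 51.0 CPM in the tdTomato-GFP- gate. In the tdTomato+GFP+ gate Epcam rested on 16 UMIs with and 55 without, and did not pass (adjusted p = 0.273 by edgeR). Of its 71 UMIs in that gate, 27 lay in the 89 cells without a cluster, whose part in the difference was not tested. Cd81 differed between gates in opposite directions by cluster, again in every replicate. The mean difference of tdTomato+GFP+ minus tdTomato-GFP- cells was 40.2 CPM in clusters 1, 2 and 3 and -196 CPM in cluster 5. Neither difference of differences was tested.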

How the results depend on the processing

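For cells with over without a Foxp3 UMI in the tdTomato+GFP+ gate the count of genes past the threshold was 347, with 134 by DESeq2, 612 with no filter, 0 with no replicate block (516 at an unadjusted p below 0.05), 228 thinned, 102 with equal cells per cluster, 125 with 1 cell per clonotype and 255 to 272 leaving out a replicate. For 2 or more over 1 Foxp3 UMI it was 31, with 12 by DESeq2, 184 with no filter, 1 with no replicate block, 17 thinned, 3 with equal cells per cluster, 0 in cluster 5 alone (276 at an unadjusted p below 0.05), 5 with 1 cell per clonotype, 9 without cells with epithelial transcripts and 12 to 47 leaving out a replicate. The cause of these shifts was not tested.

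The median log2 ratio of the 9 genes between gates was -2.95 over all cells (-2.29 with equal cells per cluster, -2.64 with 1 cell per clonotype) and -4.60 against tdTomato-GFP- cells with a Foxp3 UMI (-5.20, -3.58 and -3.92 thinned, with equal cells per cluster and with 1 cell per clonotype, -4.65 to -4.40 leaving out a replicate). In cluster 5 the median was -2.25 (-3.62 to -1.44 leaving out a replicate). There Ky, Ankrd55 and Dgat2 had 0 UMIs in tdTomato+GFP+ cells and entered as floors of 3 counts. Their ratios may be lower, so the cluster 5 median is an upper bound and cannot be set beside the others. With over without a Foxp3 UMI in the tdTomato-GFP- gate the median log2 ratio was 3.0003 (2.50, 2.08 and 2.72 under the same settings, 2.80 to 3.23 leaving out a replicate).

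Signs turned for values of the 9 genes that had not passed in the fits reported. In the tdTomato+GFP+ gate these were Art2b (-0.19 to 0.13 leaving out a replicate, 0.18 thinned, 0.058 with equal cells per cluster) and Cd81 (0.24 with 1 cell per clonotype). Between 2 or more and 1 Foxp3 UMI they were Ky (-0.079 to 0.35 leaving out a replicate, -0.18 with equal cells per cluster, -0.23 in cluster 5 and -0.23 per clonotype), Ankrd55 (0.021 with no filter, -0.017 to 0.015 leaving out a replicate, 0.45 in cluster 5) and Epcam (-1.24 to 0.40 leaving out a replicate, 0.19 thinned, 0.018 in cluster 5, 1.00 per clonotype, 0.26 without epithelial transcripts). They were also Frmd5 (-0.066 to 0.77 leaving out a replicate, -0.17 with equal cells per cluster, -0.0028 in cluster 5), Art2b (0.056 thinned), Cd81 (-0.0037 to 0.35 leaving out a replicate, -0.037 with equal cells per cluster, -0.12 without cluster 5), Pglyrp1 (-0.0020 with equal cells per cluster), Dgat2 (0.0049 thinned) and Hspb1 (0.0031 with no replicate block, -0.75 to 1.20 leaving out a replicate, 0.50 in cluster 5, 0.22 per clonotype).

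Cluster 5 alone could not be fitted for the first test, since fewer than 20 cells would be left in a sum. The rarity of Ky, Ankrd55 and Dgat2 in tdTomato+GFP+ cells limits what these counts can show.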
